A study of Mus musculus with 12 samples.

Results

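The genes described here are 10 macrophage genes of the mouse lung, *Itgax*, *Siglecf*, *Marco*, *Chil3*, *Pparg*, *Mrc1*, *Adgre1*, *C1qa*, *C1qb* and *C1qc*. They were chosen by their symbols, and all 10 were found among the 16152 genes with deposited counts and among the 51825 genes with CPM (the count of a gene scaled to equal numbers of mapped reads). RNA of whole lungs of C57BL/6 mice was sequenced at 2 embryonic time-points, E15.5 and E18.5, and at 2 postnatal time-points, P5 and P8, with 3 replicates at each, males and females together and no treatment at any. The lungs of a time-point came from 1 litter, so litter and time-point cannot be told apart, and a p-value measures the spread between samples of 1 litter. In whole tissue, a change in the number of macrophages and a change in the RNA of a gene per macrophage cannot be told apart either.

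Alveolar macrophages live on the air side of the alveolus, where they clear surfactant and inhaled particles. They develop around birth from fetal monocytes that enter the airspace, under the growth factor GM-CSF and the nuclear receptor PPARγ. Interstitial macrophages lie in the tissue around airways and vessels, and the lung also holds macrophages from the start of fetal life. *Itgax* encodes the integrin chain CD11c and *Siglecf* a sialic acid-binding lectin, and together these surface proteins are the usual markers by which alveolar macrophages are sorted. *Marco* encodes a scavenger receptor for particles and bacteria, *Chil3* the secreted chitinase-like protein Ym1, *Mrc1* the mannose receptor CD206 and *Adgre1* the pan-macrophage antigen F4/80. *C1qa*, *C1qb* and *C1qc* encode the chains of C1q, the recognition molecule of the classical complement pathway, which tissue macrophages make.

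The loci are given on the mouse assembly (GENCODE annotation, GRCm38). Those of the airspace macrophages are *Itgax* (ENSMUSG00000030789, chr7:128129547-128150657 on the plus strand), *Siglecf* (ENSMUSG00000039013, chr7:43351341-43359531 on the plus strand), *Marco* (ENSMUSG00000026390, chr1:120474538-120505024 on the minus strand), *Chil3* (ENSMUSG00000040809, chr3:106147554-106167564 on the minus strand) and *Pparg* (ENSMUSG00000000440, chr6:115360951-115490399 on the plus strand). The receptors shared with other macrophages are *Mrc1* (ENSMUSG00000026712, chr2:14229392-14332057 on the plus strand) and *Adgre1* (ENSMUSG00000004730, chr17:57358691-57483527 on the plus strand). The C1q genes are neighbours, *C1qa* (ENSMUSG00000036887, chr4:136895917-136898803 on the minus strand), *C1qb* (ENSMUSG00000036905, chr4:136880129-136886187 on the minus strand) and *C1qc* (ENSMUSG00000036896, chr4:136889804-136893065 on the minus strand).

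Between 41337443 and 53901957 reads were counted on genes in each library. A few libraries held genes of neighbouring tissues. *Rag1*, a gene of developing lymphocytes in the thymus, was at 77.8, 156 and 4.19 CPM in P8 replicates 1, 2 and 3 and at 11.97 CPM in E15.5 replicate 2, and its highest value in the other 8 libraries was 1.003 CPM. *Adipoq*, a gene of fat cells, was at 27.0, 42.0 and 0.986 CPM in the P8 libraries and at 10.1 CPM in P5 replicate 3. *Alb*, a liver gene, was at 7.31, 70.7 and 22.7 CPM at P8 and at most 2.24 CPM in any other library. Calls that involve P8 are also given from a fit without E15.5 replicate 2, P8 replicate 1 and P8 replicate 2, in which the only P8 library left is taken to vary like the other groups. That library, P8 replicate 3, held *Alb* at 22.7 CPM, so the fit does not leave out liver genes at P8. The genes *Rag1* and *Alb* were chosen after their values were seen.

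*Itgax*, *Siglecf*, *Marco* and *Chil3* were near 0 in the embryonic lung and were clearly detected after birth. *Itgax* was at 0.0484, 0.354 and 0.216 CPM in the 3 E15.5 libraries and at 0.0821, 0.268 and 0.403 CPM in the 3 E18.5 libraries. It was at 31.7, 17.96 and 17.7 CPM at P5 and at 29.6, 31.8 and 33.1 CPM at P8. No embryonic library held more than 22 reads of the gene, and no postnatal library fewer than 870. Between E18.5 and P5 the log2 fold change reached 6.54 (SE, the standard error of the fit, 0.46, edgeR FDR = 9.3e-08), while after P5 it was 0.46 (SE 0.32, edgeR FDR = 0.34), within the spread of the replicates.

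*Siglecf* went from 0.339, 0.0983 and 0.118 CPM at E15.5 and 0.123, 0.153 and 0.0916 CPM at E18.5 to values of 12.4, 7.87 and 8.32 CPM at P5. At P8 it was at 10.96, 8.05 and 12.1 CPM. Its P5 and P8 values overlapped, and the lowest of them lay far above the highest embryonic value. The log2 fold change was 6.35 from E18.5 to P5 (SE 0.42, edgeR FDR = 5.4e-08) and 0.10 from P5 to P8 (SE 0.29, edgeR FDR = 0.85). Eosinophils also carry Siglec-F. Of 5 eosinophil genes (*Epx*, *Prg2*, *Prg3*, *Il5ra* and *Ccr3*) none passed the filter on low counts, and their summed level was between 0.0821 and 0.885 CPM in the embryonic libraries, between 1.20 and 1.84 CPM at P5 and between 2.27 and 5.32 CPM at P8. Their share in the *Siglecf* signal was not tested.

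*Marco* was at 0.420, 0.236 and 0.118 CPM at E15.5 and at 0.246, 0.172 and 0.183 CPM at E18.5. It reached 21.1, 9.56 and 10.98 CPM at P5 and 37.3, 27.5 and 30.8 CPM at P8. The embryonic time-points overlapped, the P5 libraries lay above them and the P8 libraries above those of P5. The log2 fold change was 6.20 from E18.5 to P5 (SE 0.43, edgeR FDR = 8.4e-08) and 1.18 from P5 to P8 (SE 0.30, edgeR FDR = 0.021). The second change was past both cutoffs in 9 of 12 fits with 1 library left out. It was 0.94 without P5 replicate 2 (edgeR FDR = 0.086), 1.0005 without P5 replicate 3 (edgeR FDR = 0.093) and 1.01 without P8 replicate 1 (edgeR FDR = 0.083), and in the fit without the 3 libraries named above it was 1.11 (SE 0.41, edgeR FDR = 0.17).

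*Chil3* rose from the fewest embryonic reads of the 10 genes. It was at 0.0968, 0.0590 and 0.0590 CPM at E15.5 and at 0.0821, 0.115 and 0.0366 CPM at E18.5, from 2 to 6 reads a library. At P5 it was at 14.3, 12.4 and 8.20 CPM, and at P8 at 48.1, 37.6 and 22.5 CPM, with each P8 library above each P5 library. The log2 fold change was 7.29 from E18.5 to P5 (SE 0.45, edgeR FDR = 3.1e-08) and 1.61 from P5 to P8 (SE 0.28, edgeR FDR = 0.0042). The first change was above that of *Itgax*, but not without E18.5 replicate 3, when it was 6.93 beside 7.06 for *Itgax*. Without the 3 libraries the change from P5 to P8 was 0.91 (SE 0.29, edgeR FDR = 0.12). The neighbouring gene *Chil4* is a near-identical copy, and reads that could not be told apart make the *Chil3* values uncertain. *Chil4* was at 0.0321, 1.34 and 0.131 CPM at P5 and at 6.85, 5.03 and 1.78 CPM at P8, below *Chil3* in every postnatal library. The summed level of 8 neutrophil genes was between 58.4 and 73.1 CPM at P5. It was 305, 270 and 64.9 CPM in P8 replicates 1, 2 and 3. The part of neutrophils or other myeloid cells in the *Chil3* values was not tested.

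**Figure D1:**
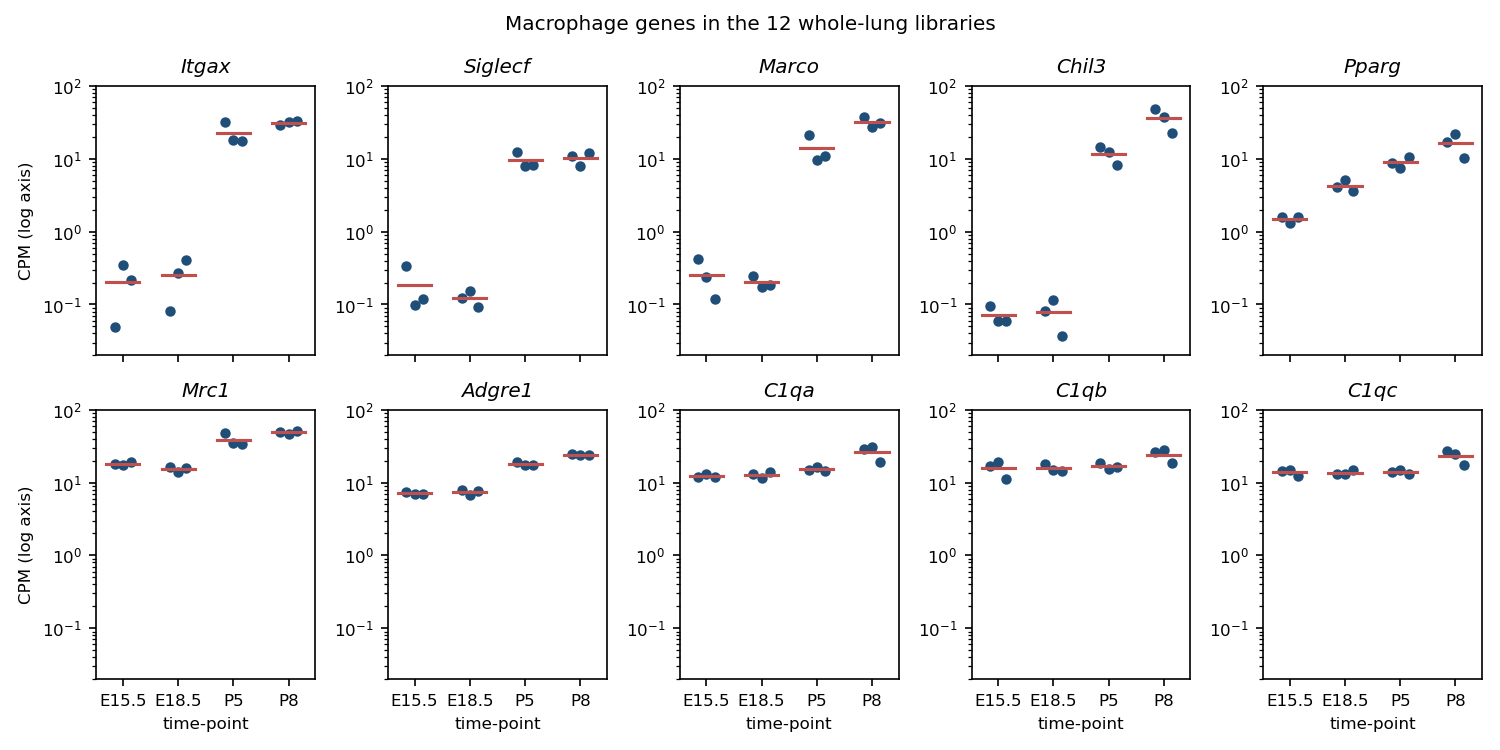
Each panel plots 1 gene, with the time-point on the horizontal axis and its CPM on a log axis. Points are the 3 libraries of a time-point (replicates 1 to 3 from left to right) and red lines are their means. *Itgax*, *Siglecf*, *Marco* and *Chil3* lie below 0.5 CPM in all 6 embryonic libraries and above 7 CPM in all 6 postnatal ones, while the 3 C1q genes stay between 11.03 and 30.9 CPM throughout.

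The sequences upstream of the transcription starts are shown for these 4 genes, which moved together, and for *C1qb* and *C1qc*, which did not move with them. Each is the 250 bases before the RefSeq start (build GRCm38.p6), written 5′ to 3′ along the gene's strand. Capitals mark the core letters GAGGAA, or TTCCTC where the core lies on the opposite strand, which the macrophage and B cell factor PU.1 recognises. The windows are chr7:128129300-128129549 on the plus strand for *Itgax*, chr7:43351091-43351340 on the plus strand for *Siglecf*, chr1:120505025-120505274 on the minus strand for *Marco*, chr3:106167565-106167814 on the minus strand for *Chil3*, chr4:136886201-136886450 on the minus strand for *C1qb* and chr4:136892915-136893164 on the minus strand for *C1qc*.
Itgax: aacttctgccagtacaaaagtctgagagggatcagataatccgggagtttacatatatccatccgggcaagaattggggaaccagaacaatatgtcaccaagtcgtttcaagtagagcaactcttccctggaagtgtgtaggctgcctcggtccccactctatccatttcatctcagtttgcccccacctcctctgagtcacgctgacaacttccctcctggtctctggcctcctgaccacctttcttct
Siglecf: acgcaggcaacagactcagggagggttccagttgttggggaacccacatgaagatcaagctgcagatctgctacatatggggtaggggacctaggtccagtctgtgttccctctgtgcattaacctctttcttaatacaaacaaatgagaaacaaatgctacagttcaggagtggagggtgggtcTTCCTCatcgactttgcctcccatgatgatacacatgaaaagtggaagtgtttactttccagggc
Marco: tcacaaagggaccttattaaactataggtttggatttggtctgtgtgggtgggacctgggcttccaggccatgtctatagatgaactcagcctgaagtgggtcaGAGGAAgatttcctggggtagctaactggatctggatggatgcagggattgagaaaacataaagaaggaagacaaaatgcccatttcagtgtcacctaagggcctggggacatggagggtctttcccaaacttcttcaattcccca
Chil3: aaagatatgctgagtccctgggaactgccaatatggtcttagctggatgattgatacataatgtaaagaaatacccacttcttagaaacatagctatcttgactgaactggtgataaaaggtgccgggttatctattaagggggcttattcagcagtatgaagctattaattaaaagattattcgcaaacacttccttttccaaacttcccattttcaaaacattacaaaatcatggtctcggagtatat
C1qb: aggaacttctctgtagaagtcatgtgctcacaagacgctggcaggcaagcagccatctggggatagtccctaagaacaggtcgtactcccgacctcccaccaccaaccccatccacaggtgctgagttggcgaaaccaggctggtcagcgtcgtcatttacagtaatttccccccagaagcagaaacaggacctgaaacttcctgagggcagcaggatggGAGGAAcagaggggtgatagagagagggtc
C1qc: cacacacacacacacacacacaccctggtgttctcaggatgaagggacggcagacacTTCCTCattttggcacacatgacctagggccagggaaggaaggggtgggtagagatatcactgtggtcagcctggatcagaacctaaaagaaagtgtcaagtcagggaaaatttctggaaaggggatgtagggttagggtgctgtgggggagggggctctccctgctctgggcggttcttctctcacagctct
Of the 10 genes, 8 had such a window, 10 windows in all because *Pparg* has 3 starts. The PU.1 core was present in 6 of the 10 windows, compared with 23.3% of the 32851 windows of all genes. These were 1 window each of *Siglecf*, *Marco*, *Pparg*, *Mrc1*, *C1qb* and *C1qc*. The core lay 65 bases before the start in *Siglecf*, 146 in *Marco*, 30 in *C1qb* and 193 in *C1qc*, and *Mrc1* held it 3 times, at 180, 167 and 35 bases before the start. The letters TTGCNNAA of C/EBP factors (or TTNNGCAA on the opposite strand) were in 1 of the 10 windows, at the third *Pparg* start, and in 9.56% of all windows. The windows of *Itgax* and *Chil3* held neither motif, and a match describes letters only.

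*Pparg* encodes the lipid-sensing nuclear receptor on which alveolar macrophages depend, and fat cells depend on it as well. It was at 1.61, 1.30 and 1.59 CPM at E15.5, 4.06, 5.05 and 3.63 CPM at E18.5, followed by 8.77, 7.45 and 10.7 CPM at P5 and 16.8, 22.0 and 10.1 CPM at P8. It was the one gene of the 10 called higher before birth, with a log2 fold change between E15.5 and E18.5 of 1.5 (SE 0.26, edgeR FDR = 0.0030), followed by 1.16 up to P5 (SE 0.25, edgeR FDR = 0.0010). These time-points did not overlap. After P5 the log2 fold change was 0.85 (SE 0.24, edgeR FDR = 0.032), under the fold change cutoff, and P8 replicate 3 lay below P5 replicate 3. The 3 libraries with the highest *Pparg* among all 12 were P8 replicate 2, P8 replicate 1 and P5 replicate 3, and these were also the 3 with the highest *Adipoq*. Without E15.5 replicate 2 and P8 replicates 1 and 2, the log2 fold change from P5 to P8 was 0.15 (SE 0.23, edgeR FDR = 0.78), while that from E15.5 to E18.5 was 1.42 (SE 0.21, edgeR FDR = 0.0036). In the embryonic libraries *Adipoq* was at 0 to 0.0766 CPM. The part of fat tissue in the postnatal *Pparg* values was not tested.

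*Mrc1* and *Adgre1* were already present in the embryonic lung and rose after birth, by 1.42 and 1.36 on the log2 scale. *Mrc1* was at 18.04, 17.2 and 18.9 CPM at E15.5 and 16.4, 14.1 and 15.9 CPM at E18.5, followed by 47.3, 35.4 and 33.8 CPM at P5 and 49.6, 46.7 and 51.2 CPM at P8. Across birth (E18.5 to P5) its log2 fold change was 1.42 (SE 0.13, edgeR FDR = 8.4e-07), beside -0.22 in the interval before (edgeR FDR = 0.25) and 0.32 in the interval after (edgeR FDR = 0.097). *Adgre1* was at 7.39, 6.88 and 6.96 CPM at E15.5, 7.94, 6.78 and 7.58 CPM at E18.5, followed by 19.2, 17.2 and 17.4 CPM at P5 and 24.9, 23.9 and 23.6 CPM at P8. For both genes every postnatal library lay above every embryonic library. The log2 fold change of *Adgre1* between E18.5 and P5 was 1.36 (SE 0.10, edgeR FDR = 1.3e-07). After P5 it was 0.41 (SE 0.097, edgeR FDR = 0.015), under the fold change cutoff and 0.37 without the 3 libraries (edgeR FDR = 0.19). Within a library, *Mrc1* had 2.55 ± 0.145 times the CPM of *Adgre1* at E15.5 (SD, n = 3) and 2.08 ± 0.0187 times at E18.5, then 2.15 ± 0.275 times at P5, with 2.04 ± 0.113 times at P8. The microRNA gene *Mir511* lies within *Mrc1* and was listed at 0 in all 12 libraries.

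None of the 3 C1q genes was called higher from E18.5 to P5, and their highest values were at P8. They lie within 18.675 kb of each other on chromosome 4 (chr4:136880129-136898803, GRCm38). *C1qa* was at 11.7, 12.99 and 11.9 CPM at E15.5, 12.9, 11.7 and 14.0 CPM at E18.5, followed by 14.9, 16.4 and 14.5 CPM at P5 and 29.1, 30.9 and 19.4 CPM at P8. *C1qb* was at 16.96, 19.05 and 11.03 CPM, then 17.96, 14.6 and 14.5 CPM, then 18.7, 15.1 and 16.4 CPM and at P8 at 25.98, 27.6 and 18.54 CPM. *C1qc* was at 14.6, 14.9 and 12.2 CPM, then 13.1, 13.2 and 14.8 CPM, then 13.95, 14.99 and 13.1 CPM and at P8 at 26.7, 24.6 and 17.3 CPM. The E18.5 and P5 values of *C1qb* and of *C1qc* overlapped, those of *C1qa* did not, and the 2 highest values of all 3 genes were P8 replicates 1 and 2.

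Across birth, DESeq2 like edgeR called 0 of the 3 C1q genes, and 1 had an unadjusted p under 0.05. The log2 fold changes were 0.34 for *C1qa* (SE 0.15, edgeR FDR = 0.064), 0.18 for *C1qb* (SE 0.20, edgeR FDR = 0.43) and 0.12 for *C1qc* (SE 0.15, edgeR FDR = 0.49). In the fit without E15.5 replicate 2 and P8 replicates 1 and 2 that of *C1qa* was 0.35 with edgeR FDR = 0.0080, again under the fold change cutoff. From P5 to P8 the log2 fold changes were 0.78 for *C1qa* (SE 0.15, edgeR FDR = 0.0068), 0.50 for *C1qb* (SE 0.20, edgeR FDR = 0.10) and 0.69 for *C1qc* (SE 0.15, edgeR FDR = 0.011). Without the same 3 libraries they were 0.32 (edgeR FDR = 0.22), 0.12 (edgeR FDR = 0.83) and 0.27 (edgeR FDR = 0.32). Between E15.5 and P8 the change of *C1qa* was 1.19 (SE 0.15, edgeR FDR = 1.3e-05), and 0.80 without those libraries (edgeR FDR = 5.3e-04), which is under the fold change cutoff. The part of thymus and fat tissue in P8 replicates 1 and 2, and of liver tissue in all P8 libraries, in the C1q values was not tested.

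**Figure D2:**
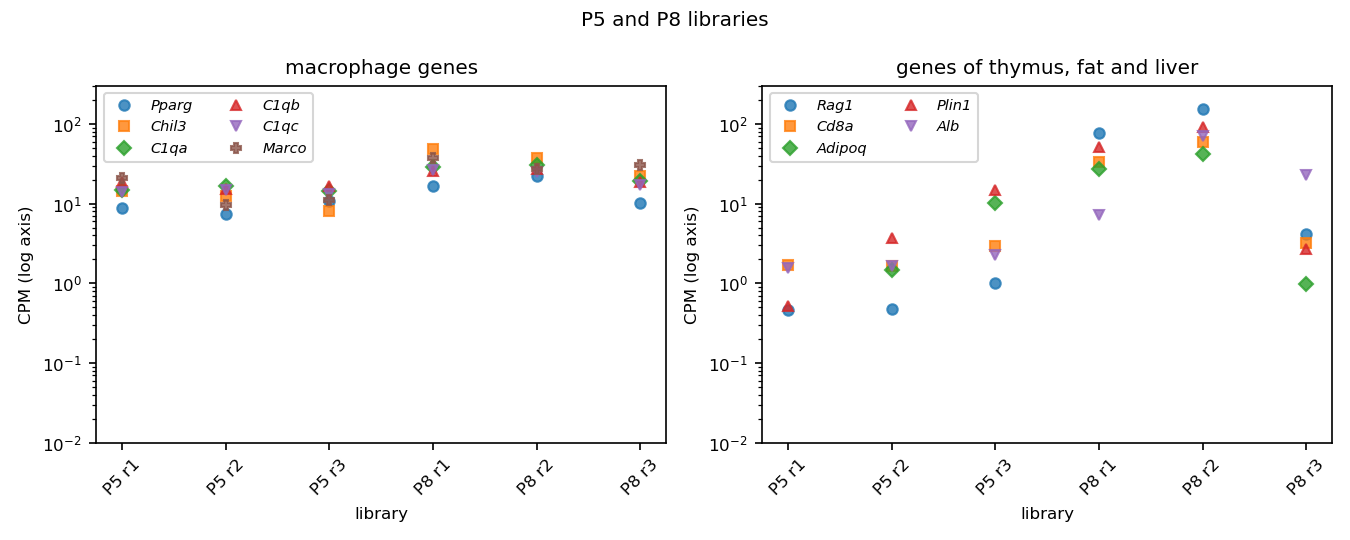
CPM on a log axis (vertical) in the 6 P5 and P8 libraries (horizontal), on the left for 6 of the macrophage genes and on the right for genes of the thymus (*Rag1*, *Cd8a*), of fat (*Adipoq*, *Plin1*) and of the liver (*Alb*). P8 replicates 1 and 2 are highest for the thymus and fat genes and for the C1q genes. *Adipoq* had no read in P5 replicate 1 and has no point there.

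A gene was called where the FDR (Benjamini-Hochberg) was under 0.05 and the log2 fold change over 1 in either direction, among the 15994 genes tested. From E15.5 to E18.5, 1 of the 10 genes was called higher (*Pparg*), where 1.59% of all genes were. From E18.5 to P5, 7 of the 10 were called higher, all but the C1q genes, beside 17.5% of all genes. Between P5 and P8, 2 of the 10 were called higher (*Chil3* and *Marco*) beside 2.88% of all genes, and with the FDR alone 6 were (also *Pparg*, *Adgre1*, *C1qa* and *C1qc*) beside 9.75%. Without E15.5 replicate 2 and P8 replicates 1 and 2, edgeR called 0 of the 10 from P5 to P8, with 4 at an unadjusted p under 0.05, and it called 7 again from E18.5 to P5. Over the whole span from E15.5 to P8, 8 of the 10 were called higher beside 20.9% of all genes, and 7 without the 3 libraries, when *C1qa* fell below the fold change cutoff. All 10 genes passed the filter on low counts, but *Itgax*, *Siglecf*, *Marco* and *Chil3* passed it through their postnatal libraries alone and so had to differ between time-points.

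The median log2 fold change of the 10 genes was 0.04, 1.39 and 0.60 over the 3 consecutive intervals, where that of all genes tested was -0.01, 0.00 and 0.00. In 8 of the 10 genes each of the 6 postnatal libraries lay above each of the 6 embryonic ones, the exceptions being *C1qb* and *C1qc*, and this held for 26.6% of the 16152 genes. E18.5 and P5 did not overlap for 8 of the 10 genes, beside 34.5% of all genes higher without overlap and 17.5% called.

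**Figure D3:**
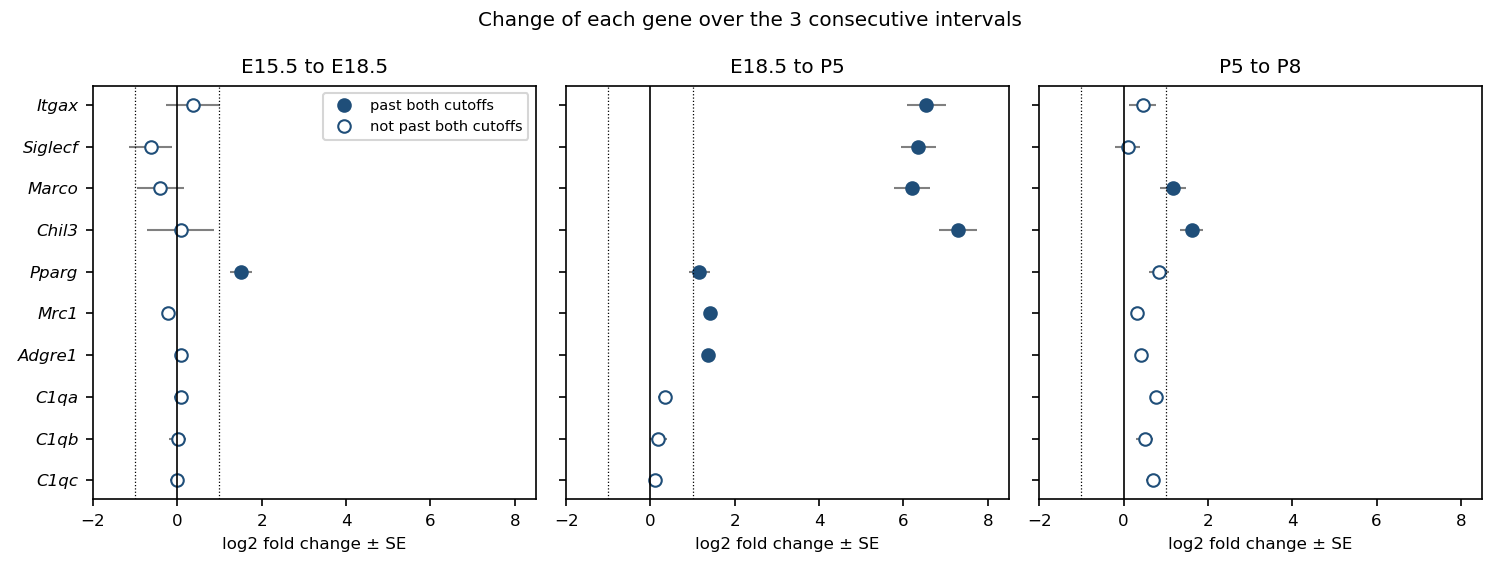
The log2 fold change of each gene (horizontal axis, bars are standard errors from the edgeR fit of 12 libraries) in the 3 consecutive intervals. Filled points are past both cutoffs, and dotted lines mark a log2 fold change of 1 in either direction. From E18.5 to P5, *Itgax*, *Siglecf*, *Marco* and *Chil3* lie between 6.20 and 7.29, *Pparg*, *Mrc1* and *Adgre1* between 1.16 and 1.42, and the C1q genes between 0.12 and 0.34.

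Whether the change across birth differed from the change after it was tested as the difference of the 2 intervals, which are not of equal length. For 6 of the 10 genes the earlier change was the larger one with an FDR under 0.05, which was so for 26.4% of all genes. Among these 6, *Itgax*, *Siglecf*, *Marco* and *Chil3* passed the filter on low counts through postnatal libraries alone. They had to differ between time-points, so the count of 6 is a description only. The difference in log2 fold change was 6.25 for *Siglecf* (SE 0.56, edgeR FDR = 3.4e-06), 6.09 for *Itgax* (edgeR FDR = 7.9e-06), 5.68 for *Chil3* (edgeR FDR = 1.1e-05) and 5.03 for *Marco* (edgeR FDR = 2.3e-05). It was smaller for *Mrc1*, at 1.10 (edgeR FDR = 0.0010), and for *Adgre1*, at 0.95 (edgeR FDR = 4.6e-04). For *Pparg* it was 0.32 (SE 0.42, edgeR FDR = 0.55). In the fit without E15.5 replicate 2 and P8 replicates 1 and 2 the *Pparg* difference was 1.02. It was 0.78 when P5 replicate 3 was left out as well, a setting chosen after seeing the data. For the C1q genes the difference, from all 12 libraries, was between -0.57 and -0.32, with the lowest edgeR FDR = 0.087. Without E15.5 replicate 2 and P8 replicates 1 and 2 it was 0.028 for *C1qa*, 0.077 for *C1qb* and -0.14 for *C1qc*.

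Within single libraries the make-up of the 10 genes changed at birth. The C1q genes held 60.2% ± 4.30 of the summed CPM of the 10 genes at E15.5 (SD, n = 3) and 60.3% ± 0.531 at E18.5, compared with 27.6% ± 3.58 at P5 and 26.7% ± 3.29 at P8. *Itgax*, *Siglecf*, *Marco* and *Chil3* together held 1.03% ± 0.229 and 0.936% ± 0.180 at the embryonic time-points, then 33.4% ± 5.14 at P5 and 40.3% ± 2.53 at P8. The shares did not overlap between embryonic and postnatal libraries, and the share of *Mrc1* stayed between 16.6% and 30.0% in all 12. Among the 4 alveolar genes the proportions also moved between P5 and P8. *Marco* had 0.605 ± 0.0670 times the CPM of *Itgax* at P5 and 1.02 ± 0.211 at P8, and *Chil3* 0.536 ± 0.136 and 1.16 ± 0.474 times. The *Marco* ratio did not overlap between P5 and P8, and the *Chil3* ratio of P8 replicate 3, at 0.678, lay within the P5 range of 0.452 to 0.693. These are descriptions of few libraries and were not tested.

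**Figure D4:**
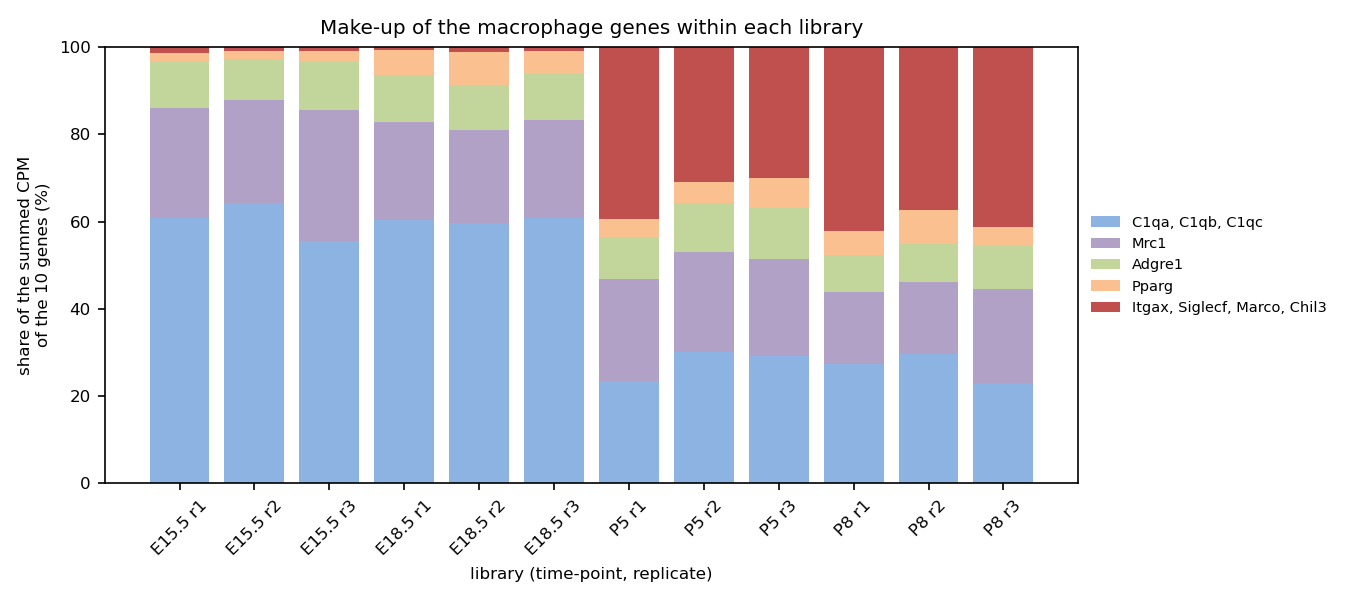
Each bar is 1 library and shows how the summed CPM of the 10 genes (vertical axis, percent) divided among 5 groups of them. The C1q genes hold 55.7% to 64.2% in the embryonic libraries and 23.1% to 30.1% in the postnatal ones, and *Itgax*, *Siglecf*, *Marco* and *Chil3* at most 1.27% and then 29.9% to 42.1%.

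Levels of different genes were compared as CPM per kilobase of annotated exon. At E18.5 the order was *C1qb* (14.4 ± 1.81, SD, n = 3), *C1qa* (12.4 ± 1.11), *C1qc* (7.09 ± 0.501), *Mrc1* (2.43 ± 0.198), *Adgre1* (2.296 ± 0.184) and *Pparg* (1.44 ± 0.248), followed by the 4 alveolar genes at 0.0439 to 0.104 CPM per kilobase. *C1qb* and *C1qa* differed by less than their spread, as did *Mrc1* and *Adgre1*. At P8 the order was *C1qa* (25.4 ± 5.93), *C1qb* (22.1 ± 4.43), *Chil3* (22.1 ± 7.90), *Marco* (16.6 ± 2.58), *C1qc* (11.8 ± 2.57), *Mrc1* (7.72 ± 0.358), *Adgre1* (7.45 ± 0.216), *Itgax* (6.56 ± 0.371), *Pparg* (5.53 ± 2.02) and *Siglecf* (3.72 ± 0.752). Neighbours among the first 4 of these differed by less than their spread, as did *Mrc1* and *Adgre1*, *Itgax* and *Pparg*, and *Pparg* and *Siglecf*. Per kilobase, *C1qc* made up 21.7% ± 1.14 and 21.0% ± 1.77 of the 3 C1q genes at the embryonic time-points, then 19.4% ± 1.13 at P5 and 19.97% ± 1.12 at P8, and the ranges of neighbouring time-points overlapped.

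Of 17 other genes of alveolar macrophages, 16 were called higher from E18.5 to P5 (17.5% of all genes were). Their log2 fold changes reached from 1.23 for *Fabp5* to 8.24 for *Cidec*, and *Bhlhe40*, at -0.05 (edgeR FDR = 0.91), was the one not called. *Fabp5* and *Bhlhe40* are named after their values were seen. *Il1rn*, the interleukin-1 receptor antagonist, was at 0.0205, 0.134 and 0.110 CPM before birth (E18.5) and at 20.4, 13.5 and 14.6 CPM at P5 (log2 fold change 7.55, SE 0.49, edgeR FDR = 5.1e-08). *Ear1*, an eosinophil-type ribonuclease with near-identical copies and so of uncertain counts, changed by 7.93 (SE 0.52, edgeR FDR = 5.2e-08). Its mean was 0.107 CPM at E15.5 and 0.0579 CPM at E18.5. It thus passed the filter on low counts through postnatal libraries alone and had to differ between time-points. How many of the 17 genes passed in this way was not counted, so their number called is a description only. *Cidec*, a lipid droplet protein, changed by 8.24 (SE 1.1, edgeR FDR = 2.6e-05). It was at 2.92, 4.40 and 11.2 CPM at P5 and 27.1, 40.4 and 5.06 CPM at P8, highest where *Adipoq* was highest. Of the 17 genes, 2 are also on the list of fat and lipofibroblast genes. From P5 to P8, 2.88% of all genes were called higher. After P5, 1 of the 17 was called higher (*Cidec*), and edgeR called 0 of the 17 without E15.5 replicate 2 and P8 replicates 1 and 2, with 1 at an unadjusted p under 0.05.

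The list of genes of interstitial and other tissue macrophages was mixed, with 7 of 14 tested called higher and 1 lower from E18.5 to P5, where 17.5% of all genes were called higher and 9.34% lower. The largest changes were those of *Cbr2*, a carbonyl reductase that airway cells also express (5.51, SE 0.24, edgeR FDR = 2.7e-09), the scavenger receptor *Cd163* (4.04, SE 0.72, edgeR FDR = 2.7e-04) and *Gas6*, a ligand of TAM receptors (1.58, SE 0.078, edgeR FDR = 6.6e-09). *Cd163* had at most 8 reads in an embryonic library and was at 1.38 to 1.96 CPM at P5. The gene called lower was the transglutaminase *F13a1* (-1.25, edgeR FDR = 2.8e-05), named after its values were seen. Of 14 general genes of mononuclear phagocytes, 12 were called higher. *Lyz2*, the lysozyme of macrophages and type 2 cells, went from 49.4 to 2119 CPM in the mean (5.51, SE 0.17, edgeR FDR = 2.3e-10), *Itgb2*, the partner chain of CD11c, from 2.73 to 51.4 CPM (4.33, SE 0.19, edgeR FDR = 2.9e-09) and *Mpeg1*, perforin-2, from 14.6 to 128 CPM (3.23, SE 0.18, edgeR FDR = 1.4e-08). Between P5 and P8 edgeR called none of these 14, DESeq2 0, and 7 had an unadjusted p under 0.05.

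Growth factors and receptors of macrophages were called higher for 6 of 12 tested from E18.5 to P5 (17.5% of all genes were). *Csf2rb*, the common β chain of the GM-CSF receptor, changed by 2.68 (SE 0.20, edgeR FDR = 1.7e-07). Its near-identical copy *Csf2rb2* changed by 2.92 (SE 0.27, edgeR FDR = 1.0e-06), and the division of reads between these 2 genes is uncertain. *Csf2rb* was at 5.54, 4.56 and 6.68 CPM at E18.5, followed by 44.4, 25.8 and 30.3 CPM at P5 and 47.8, 45.9 and 41.1 CPM at P8. *Itgb6*, a chain of the epithelial integrin that activates TGF-β, changed by 2.42 (SE 0.14, edgeR FDR = 2.7e-08). The ligand gene *Csf2* was not among the genes with deposited counts, and its CPM was at 0.0817 ± 0.0531 before birth (E18.5), 0.544 ± 0.0731 at P5 and 0.548 ± 0.177 at P8. *Spi1*, which encodes PU.1, was at 3.55, 4.21 and 5.15 CPM at E18.5, followed by 28.9, 25.4 and 23.4 CPM at P5 and 39.3, 39.0 and 35.5 CPM at P8 (2.68 from E18.5 to P5, edgeR FDR = 7.4e-09). Both *Csf2* and *Spi1* were named after their values were seen.

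Partners and targets of PPARγ were called higher for 6 of 12 from E18.5 to P5 (17.5% of all genes were). Of these 6, 4 (*Abcg1*, *Cidec*, *Fabp4* and *Lpl*) are also among the 17 alveolar macrophage genes above. The 6 were led by *Cidec*, the fatty acid carrier *Fabp4* (5.56, SE 1.4, edgeR FDR = 0.0030) and the fatty acid receptor *Cd36* (4.76, SE 0.30, edgeR FDR = 3.7e-08). *Fabp4* was at 4.09, 19.5 and 94.8 CPM at P5 and at 199, 375 and 11.9 CPM at P8, again highest in the libraries with the most *Adipoq*. *Cd36*, which capillary cells express too, rose from a mean of 22.2 to 568 CPM. Among scavenger receptors and lectins, 4 of 11 tested were called higher (17.5% of all genes) and 2 lower (9.34%), with *Cd36*, the β-glucan receptor *Clec7a* (4.44, SE 0.23, edgeR FDR = 9.3e-09) and the ferritin receptor *Scara5* (-3.74, SE 0.31, edgeR FDR = 3.9e-07) furthest.

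Most other components of the classical complement pathway rose after birth (of all genes, 17.5% were called higher across birth and 2.88% after P5). Of 10 tested, 8 were called higher across birth and 3 from P5 to P8 (*C2*, *C3* and *C4b*), of which 2 were called without E15.5 replicate 2 and P8 replicates 1 and 2. *C1s1*, the protease that C1q carries, was at 2.18, 2.41 and 1.72 CPM at E18.5, followed by 24.3, 22.7 and 25.5 CPM at P5 and 36.8, 45.6 and 46.3 CPM at P8 (3.61 from E18.5 to P5, SE 0.21, edgeR FDR = 2.3e-08). *C3*, the central component, was at 3.797, 2.45 and 2.64 CPM at E18.5, followed by 158, 120 and 104 CPM at P5 and 522, 547 and 544 CPM at P8 (5.52, SE 0.20, edgeR FDR = 8.3e-10). *C4b*, which has a near-identical copy, went from a mean of 0.150 to 6.89 and then 55.8 CPM (5.61 across birth, SE 0.27, edgeR FDR = 5.2e-09). P8 replicate 3, the lowest P8 library of the C1q genes, was not the lowest in any of these 3 genes.

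The genes whose log2(CPM + 1) followed each of the 10 most closely over the 12 libraries were found by Pearson's r, as a description of libraries that share a litter within each time-point. For *Itgax* they were *Sirpa*, *Parp10* and *Cybb* (r = 0.998, 0.997 and 0.997), for *Siglecf* *Cd300c2*, *Ear1* and *Lilra5* (0.998, 0.998 and 0.997), and for *Marco* *Vdr*, *Cd68* and *Itgb2* (0.998, 0.996 and 0.996). For *Chil3* they were *Muc20*, *Gm15931* and *Ahnak2* (0.995, 0.995 and 0.995), for *Mrc1* *Cd68*, *Myo1f* and *Vwf* (0.996, 0.993 and 0.990), and for *Adgre1* *Scel*, *C3* and *Vdr* (0.998, 0.997 and 0.997). *Sirpa*, *Cybb*, *Cd300c2*, *Lilra5*, *Cd68*, *Itgb2* and *Myo1f* are genes of myeloid cells, and *Vwf* is one of endothelial cells. *Pparg* was followed by *Aoc3*, *Runx1* and *Mal* (0.987, 0.984 and 0.983). The values were lower for *C1qa* with *Gsto1*, *Tmc5* and *Pigr* (0.981, 0.975 and 0.974), for *C1qc* with *Alox15*, *Tgm3* and *Smpd3* (0.964, 0.955 and 0.952) and for *C1qb* with *Apoe*, *Hspb1* and *Sfn* (0.925, 0.902 and 0.901). Among the 10 genes themselves, *Marco* and *Adgre1* were the closest pair (0.995) and *Siglecf* and *C1qc* the least close (0.532).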

How the data were processed

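RNA of whole mouse lungs was sequenced in 12 libraries, and whether each library is 1 animal is not given in the sources used here. The authors aligned the reads to mm10 with TopHat2 (version 2.1.1) and Bowtie2 (version 2.3.4), counted those on Gencode genes with HTSeq (version 0.10.0), and deposited unnormalized counts for 16152 expressed genes. They also deposited CPM, each count divided by the mapped reads of its library. Reads shared between near-identical genes are lost or misplaced by such counting. Between 41337443 and 53901957 counted reads stood behind each library, and intervals would cover counting error only. CPM values gave whole reads (within 0.01) for 100% of values. On these reads edgeR called 4376 of 16214 genes from E18.5 to P5, against 4289 of 15994 from the counts. Symbols matched 16136 of the 16152 identifiers.

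The counts were fitted with edgeR (version 4.0.16, R version 4.3.3) with a quasi-likelihood test and TMM factors. All 12 libraries shared 1 model of the time-points, and a gene entered it with 1 CPM or more in 3 or more libraries. DESeq2 (version 1.42.0), other scalings, no filter, the 2 time-points alone, a replicate block, fits without libraries and whole reads recovered from CPM were the alternatives. On simulated counts of 15994 genes for the comparison from E18.5 to P5, the test called 98 of 100 genes changed by 1.5 on the log2 scale, 99 of 100 changed by 3, and 6 unchanged genes.

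The 10 genes and all gene lists were chosen with earlier results of these data known. From each list, the called genes with a mean of at least 1 CPM and the 3 largest changes from E18.5 to P5 were named, and for each of the 10 genes the 3 with the highest Pearson r. A gene that this rule names is not reported here. The values of splice events were not analysed here, because they are not paired with these genes. Loci are from GENCODE (GRCm38), and upstream sequences from RefSeq (GRCm38.p6).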

Additional observations from a re-analysis of the deposited data

How the results depend on the processing

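Of the 10 genes, 7 were called from E18.5 to P5 and 1 in the interval before under every alternative run. From E15.5 to P8 the count was 8, except 10 with the FDR alone and 7 without E15.5 replicate 2 and P8 replicates 1 and 2, with or without P5 replicate 3. From P5 to P8 the count was 2 and ranged from 1 to 3 with each library left out, was 6 with the FDR alone, and was 0 by edgeR without E15.5 replicate 2 and P8 replicates 1 and 2 (4 at an unadjusted p under 0.05). It was also 0 when P5 replicate 3 was left out as well, a setting chosen after seeing the data (1 at an unadjusted p under 0.05). DESeq2 was not run on these smaller sets, and the fewer P8 libraries are part of that setting. The number of the 10 genes whose changes across birth and after P5 differed was 6, with 6 to 8 over the fits without 1 library. The 2 added without P8 replicate 3 were *C1qa* (-0.61) and *C1qc* (-0.73), whose earlier change was the smaller one. That fit kept P8 replicates 1 and 2, which held genes of thymus and fat. Without these 2 libraries and E15.5 replicate 2 the differences were 0.028 for *C1qa* and -0.14 for *C1qc*.

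Over all genes, 487 were called before birth (E15.5 to E18.5) and 474 after P5. With each library left out the first ranged from 284 to 578 and the second from 210 to 711. Without the 3 libraries 91 were called from P5 to P8, and without the 4 libraries 30, with 319 from E15.5 to E18.5. The FDR alone gave 3441, 11369, 2872 and 12197 genes in the 3 consecutive intervals and over the whole span, where both cutoffs gave 487, 4289, 474 and 5174. The cause of the differences between left-out libraries was not tested.

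Changes of sign were seen only for values that were not called. From E15.5 to E18.5 the log2 fold change of *C1qb* was -0.0095 with library size only, that of *C1qc* 0.0007 with the replicate block and 0.0441 without the 3 and without the 4 libraries, and that of *Chil3* -0.0299 and -0.0297 in these last 2 settings. With each library left out, that interval gave -0.16 to 1.02 for *Itgax*, -0.92 to 0.17 for *Siglecf*, -0.72 to 0.17 for *Marco*, -0.31 to 0.44 for *Chil3*, -0.19 to 0.17 for *C1qb* and -0.0918 to 0.0387 for *C1qc*. From P5 to P8 *Siglecf* ranged from -0.0447 to 0.36. *Pparg* from P5 to P8 passed both cutoffs without P8 replicate 3, at 1.09 (edgeR FDR = 0.0021). Among list genes, *Adipoq* from E18.5 to P5 fell to 3.81 without P5 replicate 3 (edgeR FDR = 0.10).

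The replicate numbers link no animals between time-points. Of 18 pairs of libraries with the same number, 4 had correlated deviations above 0.1 (range -0.29 to 0.27). With the replicate block, 1, 7, 2 and 8 of the 10 genes were called in the 4 comparisons, as without it. Depth limits the embryonic levels of *Itgax*, *Siglecf*, *Marco* and *Chil3*, which rest on 2 to 26 reads a library.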

Other observations

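Genes of other blood cells were counted beside the macrophage genes. Of all genes, 17.5% were called higher and 9.34% lower from E18.5 to P5, and 2.88% higher from P5 to P8. List genes under 1 CPM in all embryonic libraries entered the fit through postnatal libraries alone and so had to differ. They were not counted separately. All 6 neutrophil genes tested were called higher from E18.5 to P5, with *Retnlg* (log2 fold change 5.15, SE 0.73, edgeR FDR = 4.1e-05), *S100a9* (4.81, SE 0.63, edgeR FDR = 2.2e-05) and *S100a8* (4.81, SE 0.39, edgeR FDR = 3.3e-07) furthest. Of 5 dendritic cell genes tested, 4 were called higher, among them the chemokine receptor *Ccr7* (5.61, edgeR FDR = 7.7e-06), the MHC class II gene *H2-Ab1* (5.25, edgeR FDR = 9.6e-06) and *Clec9a* (2.70, edgeR FDR = 5.9e-08). Of 6 monocyte genes tested, 4 were called higher, among them *Fcgr4* (4.42, edgeR FDR = 1.2e-06) and *Ly6c2* (3.93, edgeR FDR = 2.6e-06), which has near-identical copies and so uncertain counts. Those not called were *Ccr2* (0.90, edgeR FDR = 1.0e-04) and *Vcan* (-0.76, edgeR FDR = 0.0020), named after their values were seen. The summed CPM of the monocyte list was 258 to 286 at E18.5 and 215 to 226 at P5.

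Of 7 genes of lymphatic vessels, 4 were called higher and 1 lower from E18.5 to P5 (17.5% and 9.34% of all genes were). The furthest were *Ccl21a* (1.67, edgeR FDR = 9.6e-06), *Lyve1* (1.55, edgeR FDR = 5.5e-08), which some interstitial macrophages also carry, and *Pdpn* (1.28, edgeR FDR = 1.4e-06). All 7 genes of type 2 cells, which make the surfactant that alveolar macrophages clear, were called higher, led by *Sftpd* (7.88, edgeR FDR = 1.2e-10), *Slc34a2* (6.35, edgeR FDR = 1.2e-08) and *Sftpa1* (5.82, edgeR FDR = 4.5e-09). Of 7 fat and lipofibroblast genes, 6 were called higher in that interval, and *Plin1* was at 0.514, 3.67 and 15.02 CPM at P5 and 51.0, 91.3 and 2.68 CPM at P8. Of 8 thymus and T cell genes tested, 5 were called higher up to P5 and 7 from P5 to P8 (17.5% and 2.88% of all genes were). Without E15.5 replicate 2 and P8 replicates 1 and 2, edgeR called 0 of the 8 from P5 to P8, with 1 at an unadjusted p under 0.05, and *Cd8a* was at 33.0, 59.5 and 3.24 CPM in the P8 libraries. All 4 liver genes tested were called higher from P5 to P8, with and without these 3 libraries.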
